A study of Mus musculus with 8 samples.

Results

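Tcl1 with its 5 Tcl1b neighbours, and the oogenesin genes Oog1 to Oog4, were followed through oocyte maturation and after injection of BTG4 RNA in mouse oocytes. The 10 members were chosen by gene symbol. All 10 were listed in every library, among 15962 genes present in all tables, and all 10 entered the test with 13968 genes. The RNA came from 8 libraries made by Smart-seq2, a method for very few cells that primes on poly(A) tails. There were 2 libraries for each of 4 groups, with 15 zona-free oocytes in each. GV oocytes were fully grown oocytes arrested in prophase, with an intact germinal vesicle, and MII oocytes had been matured in culture and not injected. The Btg4wt and Btg4tm oocytes received Myc-tagged complementary RNA at the GV stage and were then matured to MII. This RNA encoded wild-type BTG4 or BTG4 with 3 neighbouring phosphosites replaced by alanine. Every group came from CD1 (ICR) female mice that were 6 weeks old, superovulated and not transgenic, so all oocytes also kept their own Btg4 gene. Neither the uninjected MII oocytes nor the GV oocytes had an injection control, so injection and added wild-type BTG4 cannot be told apart in comparisons with them. In pooled oocytes, fewer RNA-containing oocytes and less RNA per oocyte cannot be told apart either. Nothing in the sources states that the libraries of a group came from separate animals, so the p-values measure only the spread between these libraries.

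TCL1 is a small protein that binds the kinase AKT and raises its activity. It is best known as an oncogene of lymphocytes, and in mouse it is also a maternal RNA of oocytes and early embryos. The Tcl1b genes are tandem copies next to Tcl1 that are transcribed in oocytes. Oogenesins are leucine-rich repeat proteins of the PRAME family, a family that expanded in the mouse genome and is largely expressed in germ cells. BTG4 brings the CCR4-NOT deadenylase to maternal mRNAs during maturation, and shortening of poly(A) tails is an early step of their removal.

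The Tcl1 cluster occupies chromosome 12 of GRCm38. In the GENCODE M21 annotation, the 5 Tcl1b genes lie on the plus strand, with Tcl1b2 at chr12:105146014-105155225, Tcl1b1 at chr12:105159690-105166625, Tcl1b5 at chr12:105176344-105181145, Tcl1b3 at chr12:105191043-105195612 and Tcl1b4 at chr12:105201957-105206993. Tcl1 itself lies on the minus strand at chr12:105216750-105222793. Oog1 is elsewhere on the same chromosome, on the plus strand at chr12:87602688-87608850. The other Oog genes are on chromosome 4, Oog4 at chr4:143437164-143450324 and Oog3 at chr4:144157557-144162663 on the minus strand and Oog2 at chr4:144190719-144196934 on the plus strand. All 10 are annotated as protein-coding, and no exon of another gene overlapped an exon of any of them.

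The DNA just before the start sites is shown for the Oog genes. Oog3 moved against Oog1, Oog2 and Oog4 in maturation, except with scaling to mitochondrial RNA, but shares motifs with them here. The windows are 120 bases in the direction of transcription, from RefSeq on GRCm38.p6. Capitals mark CAGCTG, a form of the E-box, and TATATA, which resembles a TATA box.
Oog1, chr12:87602545-87602664, plus strand: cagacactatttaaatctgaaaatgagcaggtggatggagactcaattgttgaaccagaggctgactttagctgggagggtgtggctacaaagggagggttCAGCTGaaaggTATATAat
Oog2, chr4:144190597-144190716, plus strand: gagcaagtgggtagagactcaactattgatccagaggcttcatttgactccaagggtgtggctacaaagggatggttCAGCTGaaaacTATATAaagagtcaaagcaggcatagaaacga
Oog3, chr4:144162652-144162771, minus strand: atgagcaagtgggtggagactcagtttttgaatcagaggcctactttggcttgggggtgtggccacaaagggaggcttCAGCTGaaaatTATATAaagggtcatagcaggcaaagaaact
Oog4, chr4:143450325-143450444, minus strand: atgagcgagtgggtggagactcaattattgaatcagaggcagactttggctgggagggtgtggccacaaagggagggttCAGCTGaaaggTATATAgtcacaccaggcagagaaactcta

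All 4 Oog windows held CAGCTG and then TATATA. The CAGCTG began 19 bases before the annotated start of Oog1, 43 before that of Oog2, 42 before that of Oog3 and 41 before that of Oog4. In each gene TATATA began 11 bases after CAGCTG. These motifs were picked after the sequences had been read. Among 27025 RefSeq mouse promoters, 5.7% held CAGCTG and 2.4% held TATATA in the last 100 bases before the start. The longest stretch common to the 4 Oog windows was TTCAGCTGAAA, of 11 bases. Further motifs were searched in promoters taken from 250 bases before to 50 after the start. TAATTG, the core of the site that the oocyte homeobox factor NOBOX binds, was in the promoters of Oog3 and Oog4 and in 8.2% of all promoters. The general E-box CANNTG was in all 10 members and in 72.1% of promoters. All motifs were searched on both strands, and CAGCTG is itself a form of CANNTG.

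The Tcl1b promoters had another shared stretch, shown here in capitals because the 5 Tcl1b genes all passed the test as higher in MII than in GV and as lower in Btg4tm than in Btg4wt, directions that turn with scaling to mitochondrial RNA.
Tcl1b1, chr12:105159584-105159703, plus strand: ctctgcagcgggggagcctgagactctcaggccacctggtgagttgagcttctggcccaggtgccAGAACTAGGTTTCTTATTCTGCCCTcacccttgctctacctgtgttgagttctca
Tcl1b2, chr12:105146899-105147018, plus strand: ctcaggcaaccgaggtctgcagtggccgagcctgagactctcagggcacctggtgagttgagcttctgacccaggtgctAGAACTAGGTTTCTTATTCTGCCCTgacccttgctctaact
Tcl1b3, chr12:105190925-105191044, plus strand: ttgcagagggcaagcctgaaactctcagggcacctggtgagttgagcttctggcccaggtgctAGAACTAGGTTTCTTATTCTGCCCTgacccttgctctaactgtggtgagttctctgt
Tcl1b5, chr12:105176224-105176343, plus strand: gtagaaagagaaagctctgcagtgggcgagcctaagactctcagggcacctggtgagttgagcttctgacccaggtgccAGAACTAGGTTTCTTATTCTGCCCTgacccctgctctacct

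The 25 bases in capitals were identical in the promoters of all 5 Tcl1b genes, Tcl1b4 included. RefSeq and GENCODE do not place every start alike. The RefSeq windows of Tcl1b2 and Tcl1b4 lie inside the GENCODE genes given above. Promoter identity was between 59.8% and 90.4% over the 10 Tcl1b pairs and between 64.6% and 76.7% over the 6 Oog pairs. Tcl1 shared between 45.7% and 48.8% with the Tcl1b promoters, near the 43.5% to 48.4% between promoters of different clusters, although it rose with the Tcl1b genes in maturation. In the Tcl1 cluster, CAGCTG occurred only far upstream, 235, 222 and 196 bases before the start of Tcl1b2, Tcl1b4 and Tcl1b5, and TATATA was in none of the 6 promoters.

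The ends of the transcripts carry the polyadenylation signal and, in some maternal mRNAs, a cytoplasmic polyadenylation element, and the libraries were primed from poly(A) tails. The signal (AATAAA or its variant ATTAAA) stands in capitals in 30 bases near the end of the longest annotated coding transcript, from GENCODE M21.
Tcl1: atttAATAAAgctttgtagaactttaaaat
Tcl1b1: aactaATTAAActttactgtttttacttaa
Tcl1b4: ttaactaATTAAActttactgtttttactt
Oog1: catacAATAAAtctgttgactttttttttt
Oog3: atatAATAAAtgtgttaactttgttttatt
Oog4: taagtgcatacAATAAAtgtgttaactttc

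Tcl1 and the 4 Oog genes had AATAAA within the last 100 bases, as did 61.6% of the longest coding transcripts of all genes. The 5 Tcl1b genes had ATTAAA and no AATAAA there, as did 13.3% of all. The signal started 73 bases from the end in Oog2, which is not printed above, and 19 to 29 bases from the end in the other members. ATTAAA was added to the search after the sequences had been read. The element TTTTAT was in the last 100 bases of Tcl1, Oog1 and Oog3, starting 65, 60 and 10 bases from the end, and in 12.9% of all genes. TTTTAAT was in none of the 10 members and in 4.6% of all genes. Of the genes that held TTTTAT, Tcl1 and Oog3 rose in maturation, except with scaling to mitochondrial RNA, and Oog1 fell. In Oog3 TTTTAT lies after the signal, which starts 29 bases from the end. Other forms of the element were not searched, and a link between these sequences and the RNA changes was not tested.

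Coding sequences ranged from 116 codons in Tcl1 and Tcl1b1 to 122 in Tcl1b3, and from 430 in Oog4 to 500 in Oog3. Tcl1b coding sequences were between 71.2% and 86.2% identical, Tcl1 shared between 49.5% and 51.3% with them, and the Oog pairs shared between 64.3% and 80.4%. Near-identical copies matter here, because the authors dropped reads with a mapping quality under 10. Of all 50-base stretches of the Oog1 transcript, 88.6% occurred also in a transcript of another gene (C87977, Gm10436, Gm13023, Gm2042 or Oog4). The share was 45.2% for Oog2, 19.7% for Oog3 and 0.7% for Oog4. In the Tcl1 cluster it was 0.0% for Tcl1 and 2.8% for Tcl1b4, and ran from 13.0% for Tcl1b1 to 34.1% for Tcl1b3, all of it shared within the Tcl1b genes. The levels of Oog1 and Oog2 in particular are therefore uncertain, while Oog4 and Tcl1 could be counted from nearly all of their sequence.

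Values below are scaled TPM, that is, transcript abundances per length and per library total, brought to a common scale by the median ratio over genes, so levels can be compared between genes. Scaling factors lay between 0.948 and 1.11. TPM keeps no read depth, so no counting error is given. Replicate libraries correlated at 0.982 to 0.987 across genes on the log2 scale. All 10 oocyte markers were listed, and their summed level lay between 37575 and 50222 scaled TPM. Of 15 cumulus and granulosa cell markers, 7 were in no table (Amhr2, Foxl2, Has2, Tnfaip6, Ptx3, Cd44 and Amh), and the 5 in all tables summed to 35.4 and 35.1 scaled TPM in GV, 46.0 and 49.6 in MII, 46.7 and 47.7 in Btg4wt and 41.2 and 36.2 in Btg4tm. These sums moved in the order of the Tcl1 cluster at a far lower level, and their part in the results was not tested. Cyp19a1, Kitl and Nr5a2 moved with the sums, and Ptgs2 was too low to be tested. Inha went the other way, called lower in MII against GV (-1.72) and higher in Btg4tm against Btg4wt (1.74). Fshr and Cyp11a1 were listed only for the injected groups, and Hsd17b1 only for GV and MII. The level of Btg4 RNA was 2650 and 2794 in GV, 5792 and 6002 in MII, 5178 and 5510 in Btg4wt and 3725 and 4068 in Btg4tm. Btg4wt was not above MII in Btg4 RNA (log2 difference -0.14, SE 0.10, limma adjusted p = 0.62), so these values do not show the injected RNA, and the groups are called by their labels.

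**Figure D1:**
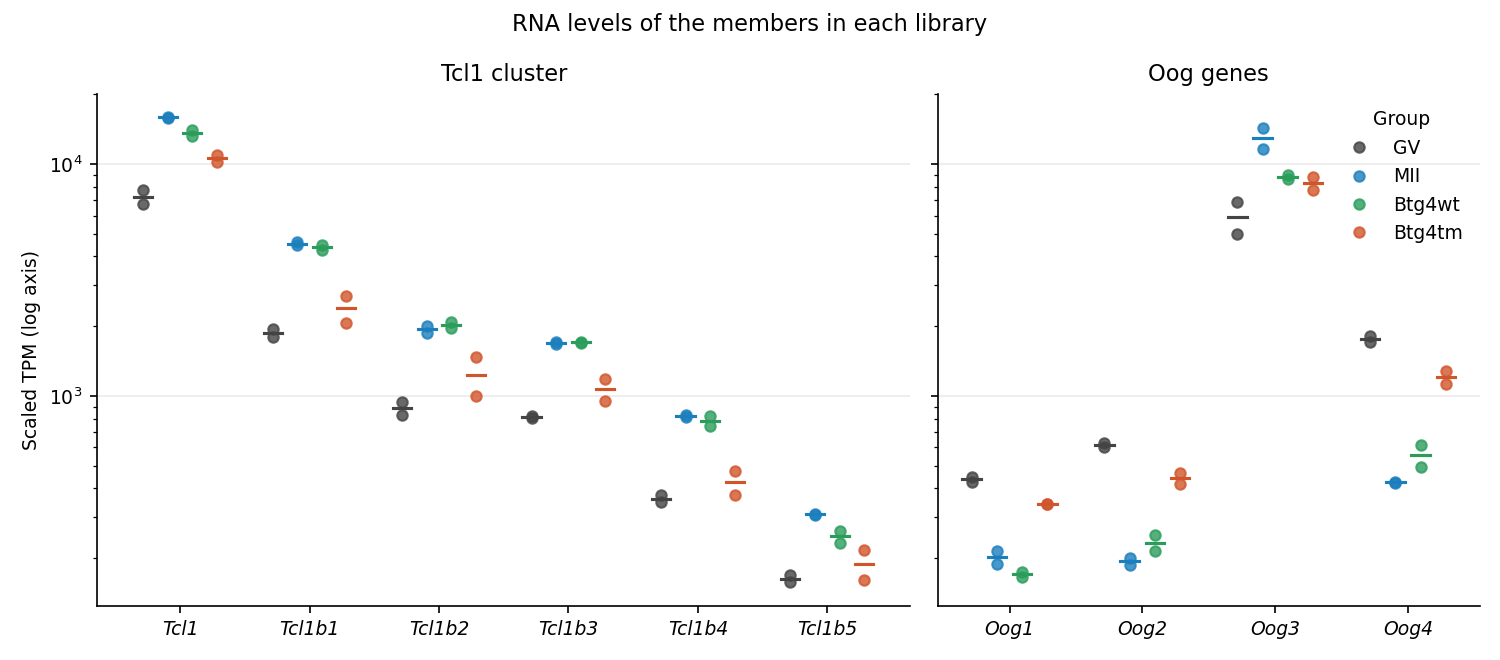
Scaled TPM (log axis) of each member in each of the 8 libraries; points are libraries, coloured by group, and bars are group means. Tcl1 and Oog3 lie above the other members in every library, the Tcl1 cluster is lowest in GV, and Oog1, Oog2 and Oog4 are highest in GV.

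Tcl1 and Oog3 were among the most abundant RNAs of the oocyte. Ranked by level among 15962 genes, Tcl1 held positions 6 to 11 and Oog3 positions 9 to 15 over the 8 libraries. The other members spread from position 31, reached by Tcl1b1, to position 1014, reached by Tcl1b5. The 6 Tcl1 cluster genes made up 1.21% and 1.25% of all TPM in GV, 2.44% and 2.47% in MII, 2.23% and 2.24% in Btg4wt and 1.47% and 1.62% in Btg4tm. The 4 Oog genes made up 1.02% and 0.877% in GV, 1.21% and 1.47% in MII, 0.962% and 0.956% in Btg4wt and 1.06% and 0.933% in Btg4tm. The Tcl1 cluster share thus separated GV and Btg4tm from the other groups, while the Oog share of Btg4tm overlapped that of GV and of Btg4wt.

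Within the Tcl1 cluster the order of levels was the same in all 4 groups, from Tcl1 through Tcl1b1, Tcl1b2, Tcl1b3 and Tcl1b4 to Tcl1b5. Tcl1 held 63.8% of the TPM of its cluster in GV, 63.2% in MII, 59.8% in Btg4wt and 66.7% in Btg4tm. The make-up of the Oog genes shifted more. Oog3 held 67.5% of their TPM in GV and 94.0% in MII, with 90.2% in Btg4wt and 80.5% in Btg4tm. Oog4 held 20.4% in GV and 3.10% in MII, with 5.68% in Btg4wt and 11.8% in Btg4tm.

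The comparison of MII with GV asked what maturation does to these RNAs. All 6 Tcl1 cluster genes and Oog3 rose, and Oog1, Oog2 and Oog4 fell. A gene passed the test at a limma adjusted p under 0.05, and was called when its log2 fold change was also beyond 1 in either direction. By the first rule 7 of 10 members were higher and 3 lower, against 29.8% of all genes higher and 32.8% lower. By the second 6 were called higher and 3 lower, against 12.5% and 24.0%. The median log2 fold change was 1.14 over the Tcl1 cluster and -1.39 over the Oog genes, and 0.00 over all genes tested when rounded. No member's libraries overlapped between MII and GV, but the share of all genes without overlap was not taken.

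Tcl1 stood at 7739 and 6712 scaled TPM in GV and at 15875 and 16024 in MII. This was a 2.21-fold rise (log2 fold change 1.15, SE 0.11, limma adjusted p = 5.45e-05). The RNA was thus already abundant before maturation, and within its cluster it had the widest difference in scaled TPM. With scaling to mitochondrial RNA, Tcl1 was lower in MII (-1.07).

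Among the Tcl1b copies, Tcl1b1 went from 1799 and 1940 to 4469 and 4609 scaled TPM, with a log2 fold change of 1.28 (SE 0.13). Tcl1b2 went from 830.3 and 938.5 to 1870 and 2010, with 1.13 (SE 0.17). Tcl1b3 went from 821.8 and 804.8 to 1675 and 1709, with 1.06 (SE 0.11). These copies lie on the plus strand, and each passed the test as higher in MII (lower with scaling to mitochondrial RNA). Tcl1b4 went from 350.0 and 372.5 to 815.4 and 825.0, with 1.18 (SE 0.13), and Tcl1b5 from 169.4 and 157.1 to 307.5 and 311.0, with 0.92 (SE 0.15). Limma adjusted p-values of the Tcl1b genes lay between 6.93e-05 and 7.13e-04, the last for Tcl1b5, which passed the test but missed the fold of the call.

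Oog4 showed the greatest fall of the members. It stood at 1705 and 1811 scaled TPM in GV and at 420.2 and 427.6 in MII, which is 4.15-fold lower (log2 fold change -2.05, SE 0.13, limma adjusted p = 4.66e-06). Oog4 is also the Oog gene with the least sequence in common with other genes.

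Oog2 fell from 604.4 and 624.9 to 187.2 and 200.6 scaled TPM, with a log2 fold change of -1.66 (SE 0.11, limma adjusted p = 7.35e-06). Oog1 fell from 427.9 and 447.4 to 189.5 and 215.0, with -1.11 (SE 0.10, limma adjusted p = 2.88e-05). Both are oogenesins of the same family as Oog4, and their MII libraries lay well below their GV libraries.

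Oog3, by contrast, rose from 6866 and 5003 scaled TPM in GV to 11636 and 14306 in MII. The rise was 2.19-fold (log2 fold change 1.14, SE 0.17, limma adjusted p = 5.58e-04). With scaling to mitochondrial RNA, Oog3 was lower in MII (-1.08). Its libraries were the least alike of the members within both groups, and without the second GV library or without the second MII library the log2 fold change was 0.91 or 0.99 and the call was lost, while the adjusted p stayed under 0.05.

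**Figure D2:**
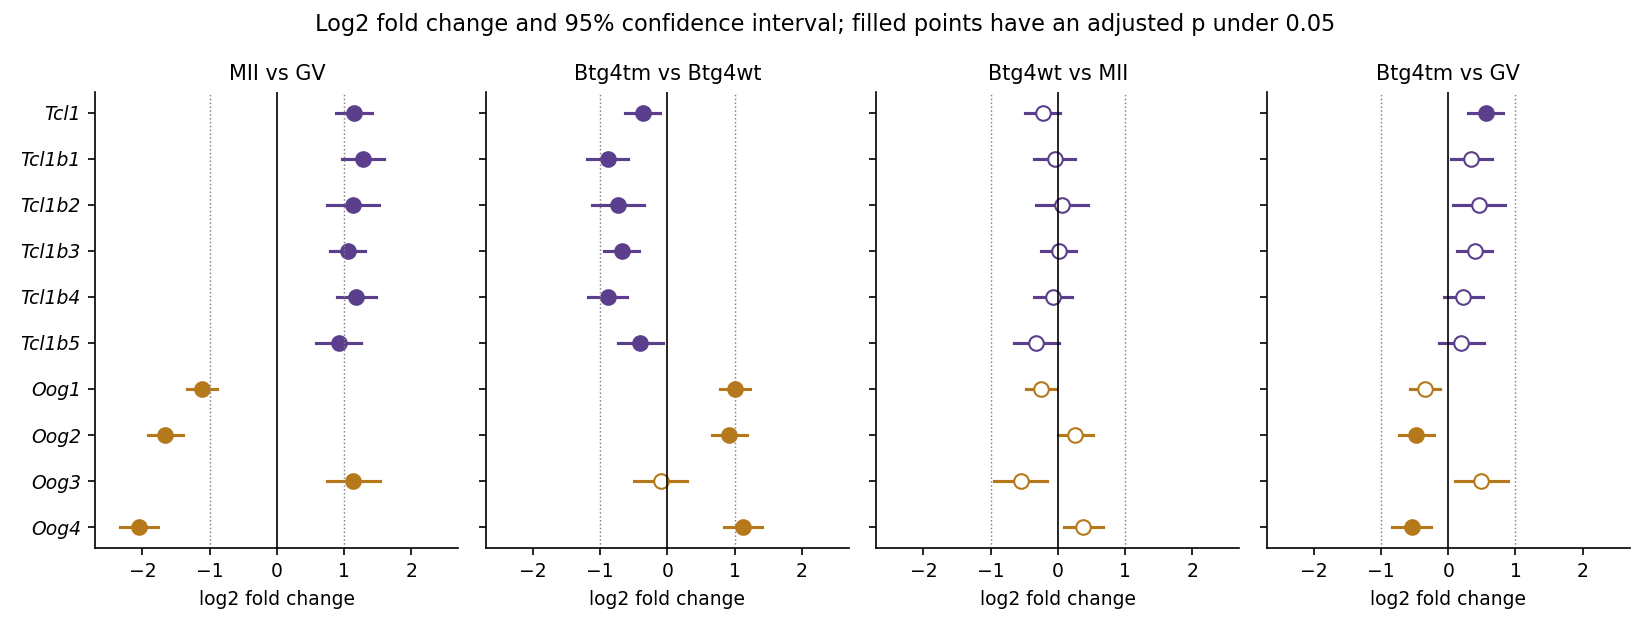
Log2 fold change with its 95% confidence interval for each member in the 4 comparisons, Tcl1 cluster in purple and Oog genes in amber; filled points passed the test and dotted lines mark the fold of the call. Oog3 lies with the Tcl1 cluster in MII against GV, and its interval from -0.49 to 0.30 spans 0 in Btg4tm against Btg4wt.

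The comparison of Btg4tm with Btg4wt asked what replacing the 3 phosphosites of BTG4 does, in oocytes that were all injected. Btg4 RNA itself was lower in Btg4tm (log2 difference -0.46, SE 0.10, limma adjusted p = 0.0057), and its part in the differences below was not tested. The paper remarks that both injected forms seemed to lower endogenous BTG4. The 6 Tcl1 cluster genes were lower in Btg4tm, Oog1, Oog2 and Oog4 were higher, and Oog3 did not pass the test. By adjusted p alone, 3 of 10 members were higher and 6 lower, against 26.2% and 23.3% of all genes. Only Oog1 and Oog4 were called higher and no member was called lower, against 18.1% and 7.94% of all genes. The 0 calls among the falls come from the fold limit, since 6 members fell at an unadjusted p under 0.05. The median log2 fold change was -0.71 over the Tcl1 cluster, 0.97 over the Oog genes and 0.01 over all genes tested.

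Oog4 stood at 617.0 and 493.3 scaled TPM in Btg4wt and at 1129 and 1283 in Btg4tm, 2.17-fold higher with mutant BTG4 (log2 fold change 1.12, SE 0.13, limma adjusted p = 1.62e-04). Oog1 stood at 165.6 and 174.3 in Btg4wt and at 343.9 and 341.8 in Btg4tm (1.01, SE 0.10, limma adjusted p = 7.91e-05). Oog2 stood at 252.5 and 214.4 in Btg4wt and at 418.3 and 466.1 in Btg4tm (0.92, SE 0.11, limma adjusted p = 2.51e-04). The 3 oogenesin RNAs that fell in maturation were thus each higher with mutant than with wild-type BTG4. The calls sit close to the fold limit: without the first Btg4wt library Oog1 had 0.97 and was not called while Oog2 had 1.04 and was, and without the second Oog4 had 0.96 and was not called.

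Oog3 stood at 8653 and 8985 scaled TPM in Btg4wt and at 8817 and 7726 in Btg4tm. Its log2 difference was -0.10 with a 95% confidence interval from -0.49 to 0.30 (limma adjusted p = 0.68), and its libraries overlapped. With scaling by the median ratio, the interval leaves out differences of the size seen for Oog1, Oog2 and Oog4. With scaling to mitochondrial RNA, Oog3 had 0.99 and passed as higher in Btg4tm (limma adjusted p = 0.0055).

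Tcl1 stood at 13280 and 13997 scaled TPM in Btg4wt and at 10227 and 10957 in Btg4tm, a log2 difference of -0.36 (SE 0.11, limma adjusted p = 0.028). Tcl1b1 fell from 4286 and 4491 to 2075 and 2710, with -0.89 (SE 0.13, limma adjusted p = 8.08e-04). Tcl1b4 fell from 818.7 and 743.7 to 374.1 and 476.4, with -0.88 (SE 0.13, limma adjusted p = 6.01e-04). Tcl1, the most abundant gene of the cluster, thus had a smaller difference than these copies.

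Tcl1b2 stood at 2087 and 1966 scaled TPM in Btg4wt and at 1002 and 1472 in Btg4tm (-0.74, SE 0.17). Tcl1b3 stood at 1712 and 1699 in Btg4wt and at 956.0 and 1189 in Btg4tm (-0.68, SE 0.11). Tcl1b5 stood at 262.6 and 233.5 in Btg4wt and at 160.8 and 217.3 in Btg4tm (-0.40, SE 0.15, limma adjusted p = 0.047). The results for Tcl1 and Tcl1b5 are the least firm of the 6. With scaling to mitochondrial RNA, Tcl1 and Tcl1b5 passed as higher in Btg4tm (0.72 and 0.68, limma adjusted p = 0.010 and 0.0053). Of 17 alternative fits, 10 did not give Tcl1 an adjusted p under 0.05 in the same direction, and 13 did not for Tcl1b5, against 1, with mitochondrial scaling, for each of the other 4 genes. Left out 1 library at a time, the limma adjusted p of Tcl1 reached 0.13 without the second Btg4wt library, and it missed the threshold too without either MII library, the first Btg4wt or the first Btg4tm library. That of Tcl1b5 reached 0.24 without the first Btg4tm library, and the second Btg4tm library was the only one it could lose and still pass. In all 6 genes the second Btg4tm library was higher than the first. Without the second Btg4tm library, 3 members were called lower in place of 0, Tcl1b1, Tcl1b2 and Tcl1b4, with log2 differences of -1.08, -1.02 and -1.06.

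Btg4wt and MII were compared to see what injection with wild-type BTG4 added to maturation. No member passed the test, nor did any gene, so both shares were 0.00% by either rule, although 1655 genes and 4 members (the 4 Oog genes) had an unadjusted p under 0.05 in limma. The widest member difference was that of Oog3, -0.55 with a 95% confidence interval from -0.94 to -0.15 (limma adjusted p = 0.30). Oog4 had 0.38 (interval 0.09 to 0.67) and Oog1 -0.25 (interval -0.47 to -0.02). In the Tcl1 cluster, differences lay between -0.32 for Tcl1b5 and 0.06 for Tcl1b2. The MII and Btg4wt libraries overlapped for Tcl1b1, Tcl1b2, Tcl1b3 and Tcl1b4, and did not for the other 6 members. The share of all genes without overlap was not taken, so this count shows no difference between the groups.

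Btg4tm and GV were compared to see how far mutant oocytes were from the level before maturation. These groups are also in the comparisons above, so the values are given side by side. No member was called, against 1.02% of all genes called higher and 1.02% lower. Tcl1 passed the test as higher in Btg4tm (log2 difference 0.55, SE 0.11, limma adjusted p = 0.021), against 7.66% of all genes. Oog4 (-0.55, SE 0.13, limma adjusted p = 0.031) and Oog2 (-0.48, SE 0.11, limma adjusted p = 0.033) passed as lower, against 3.73% of all genes. These 3 passes rest on single libraries. Without the second GV library the limma adjusted p was 0.11 for Tcl1 and 0.15 for both Oog2 and Oog4, and in the fit of these 4 libraries alone it was 0.094, 0.076 and 0.069. All 3 also missed the threshold without either MII library, Tcl1 without the second Btg4tm library, and Oog2 and Oog4 without the first GV or the first Btg4tm library. Without the first Btg4tm library, Tcl1b1, Tcl1b2 and Tcl1b3 passed as higher (limma adjusted p = 0.033, 0.021 and 0.025). With all 8 libraries, the other 7 members missed the threshold, among them Oog1 at -0.35 (interval -0.58 to -0.13, limma adjusted p = 0.055) and Oog3 at 0.49 (interval 0.10 to 0.89, limma adjusted p = 0.10).

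Ordered by mean level, each member had GV at one end. Tcl1 ran from MII through Btg4wt and Btg4tm to GV, and no neighbouring groups overlapped. Tcl1b1 and Tcl1b4 had the same order, with MII and Btg4wt overlapping. Tcl1b2 and Tcl1b3 had Btg4wt just above MII, again with overlap, and Btg4tm between them and GV. Tcl1b5 had the order of Tcl1, with Btg4tm overlapping GV. Oog4 and Oog2 ran from GV through Btg4tm and Btg4wt to MII, and Oog1 from GV through Btg4tm and MII to Btg4wt, without overlap. Oog3 ran from MII through Btg4wt and Btg4tm to GV, with Btg4wt and Btg4tm overlapping. The share of all genes without overlap between groups was not taken, so these orders are a description and show no difference by themselves.

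Ratios between members inside a library do not depend on the scaling between libraries. The log2 ratio of the summed Oog to the summed Tcl1 cluster TPM was -0.29 and -0.47 in GV, -1.01 and -0.75 in MII, -1.21 and -1.23 in Btg4wt and -0.47 and -0.79 in Btg4tm. MII lay 0.50 below GV (difference -0.50) and Btg4tm lay above Btg4wt (difference 0.59). Neither pair of groups overlapped, and the two-sided exact permutation p was 0.333 for each, the smallest that 2 libraries against 2 can give. The sum is mostly Oog3, and the ratio of Oog3 to Tcl1 differed by -0.01 between MII and GV, with overlapping libraries.

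Without Oog3, a choice made after the values were seen, the same log2 ratio was -2.10 and -1.92 in GV, -4.97 and -4.92 in MII, -4.44 and -4.71 in Btg4wt and -2.97 and -3.03 in Btg4tm. As amounts, the Tcl1 cluster exceeded Oog1, Oog2 and Oog4 together 4.28-fold and 3.79-fold in GV and 31.4-fold and 30.2-fold in MII. The factor was 21.7 and 26.2 in Btg4wt and 7.82 and 8.14 in Btg4tm. The Btg4tm libraries were thus between GV and the other MII oocytes. The log2 ratio of Oog4 to Oog3 was -2.01 and -1.47 in GV, -4.79 and -5.06 in MII, -3.81 and -4.19 in Btg4wt and -2.97 and -2.59 in Btg4tm. The summed Tcl1b genes over Tcl1 changed little in maturation (log2 difference 0.04) and lay lower in Btg4tm than in Btg4wt (-0.43), without overlap. No test was made of these last ratios.

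**Figure D3:**
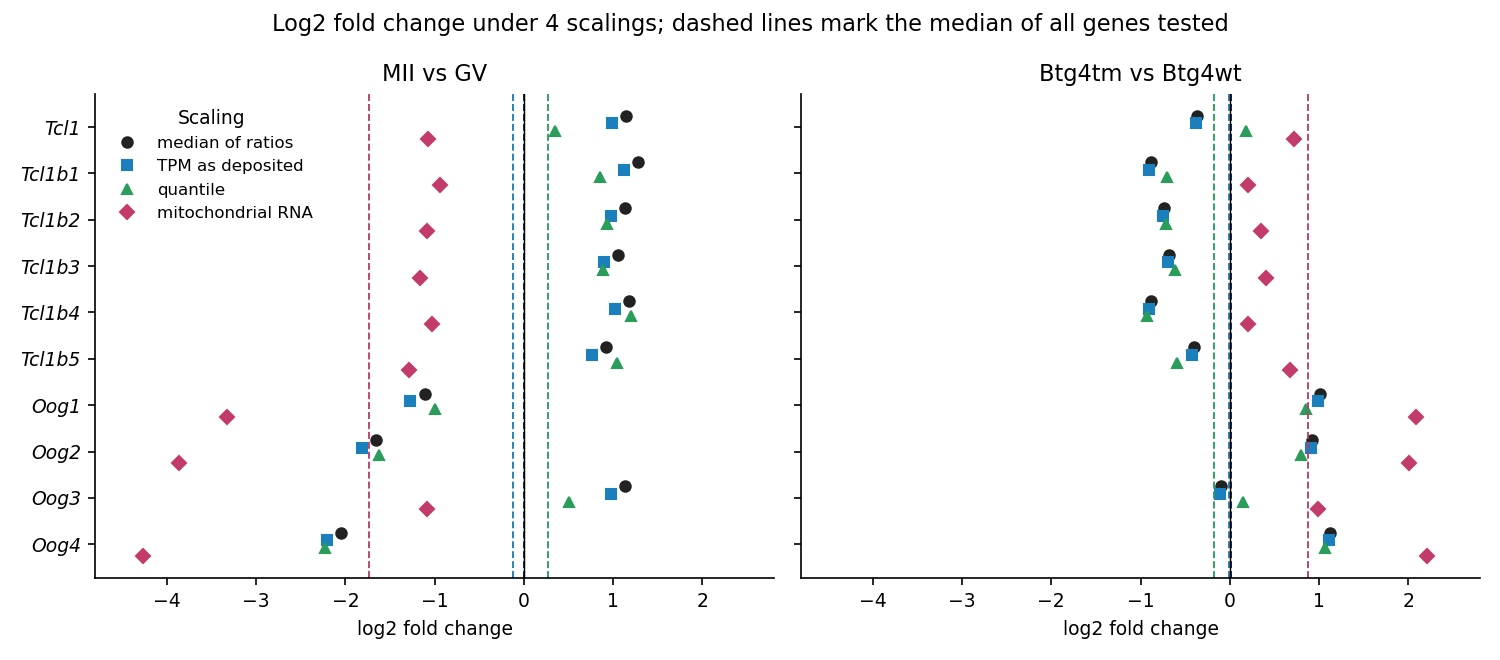
Log2 fold change of each member in 2 comparisons under 4 scalings, with dashed lines for the median of all genes tested under each scaling. With scaling to mitochondrial RNA the median of all genes is -1.74 in MII against GV and 0.88 in Btg4tm against Btg4wt, and the Tcl1 cluster and Oog3 change sign, while Oog1, Oog2 and Oog4 keep theirs.

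The direction of the Tcl1 cluster rests on how libraries are brought to a common scale. Mitochondrially encoded genes made up 0.625% and 0.651% of TPM in GV, 2.71% and 2.60% in MII, 2.07% and 1.77% in Btg4wt and 0.774% and 1.03% in Btg4tm. With scaling to their sum, the typical gene (the median of all tested) was at -1.74 in MII against GV. Tcl1 then had -1.07, the Tcl1b genes between -1.29 and -0.94 and Oog3 -1.08, all above that median, and Oog4 had -4.26, below it. In Btg4tm against Btg4wt the median moved to 0.88, Tcl1 to 0.72, the Tcl1b genes to between 0.20 and 0.68 and Oog3 to 0.99, and Oog4 to 2.21. Quantile normalization moved the medians to 0.27 and -0.18, kept the rise of all 7 members in MII, with Tcl1 at 0.35 and Oog3 at 0.50, and gave Tcl1 0.18 in Btg4tm against Btg4wt. With TPM as deposited the median was -0.13 in MII against GV, and Tcl1, Tcl1b2, Tcl1b3 and Oog3 had between 0.90 and 0.99. Oog1, Oog2 and Oog4 kept their direction under each of these scalings. Over all 13968 genes tested, scaling to mitochondrial RNA called 7 higher and 11403 lower in MII against GV. Genes outside the members are given below with scaling by the median ratio only, and whether their directions hold under the others was not tested.

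AKT is the kinase that TCL1 binds, and 25 genes of its pathway were all listed and tested. In MII against GV, 6 were called higher and 2 lower (12.5% and 24.0% of all genes), with a median log2 fold change of 0.61. The 5 most abundant were Mapkap1, Foxo3, Foxo1, Pik3r1 and Ppp2ca. Mapkap1, a subunit of the mTORC2 complex that phosphorylates AKT, had 0.84. Foxo3 and Foxo1, transcription factors that AKT phosphorylates, had 1.19 and 1.17, and Pik3r1, a regulatory subunit of PI3K, had 1.23. Ppp2ca, a catalytic subunit of the phosphatase PP2A, was called lower at -1.77. Akt1 had 0.98 and was not called, and Akt2 had 0.20. In Btg4tm against Btg4wt, 1 was called higher and 6 lower (18.1% and 7.94% of all genes), with a median of -0.51. Pik3r1 was called lower at -2.12 and Ppp2ca was the gene called higher, at 2.29, while Foxo3 had -0.07 and Akt1 -0.16. In Btg4wt against MII none of the 25 passed the test in limma. Akt1 RNA stood between 12.1 and 44.5 scaled TPM in the 8 libraries, far below Tcl1 in each. Mtcp1, the TCL1 relative outside the cluster, stayed under 1 scaled TPM and was not tested.

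**Figure D4:**
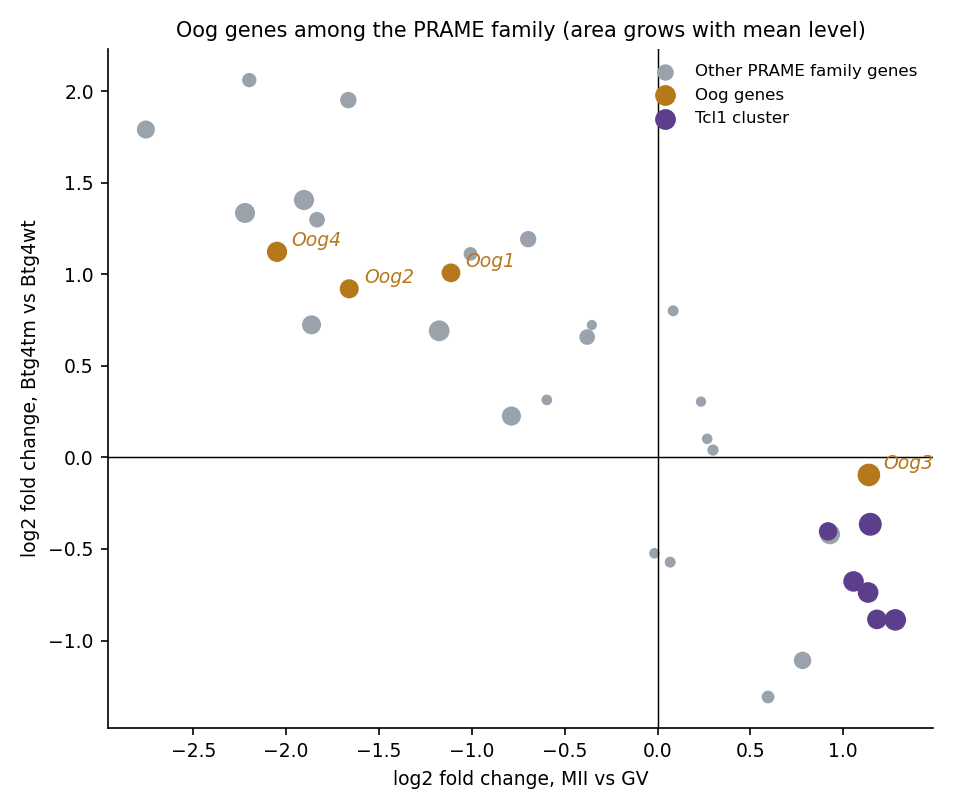
Log2 fold change in MII against GV (horizontal) and in Btg4tm against Btg4wt (vertical) of the 4 Oog genes, 23 other PRAME family genes and the 6 Tcl1 cluster genes; point area grows with mean level. Oog1, Oog2 and Oog4 lie at the upper left among most of the abundant PRAME genes, and Oog3 at the lower right.

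Of 27 other PRAME family genes named in the tables, 25 were in all tables and 23 were tested. In MII against GV 9 were called lower and none higher (24.0% and 12.5% of all genes), with a median of -0.60, and 2 of the 23 passed the test as higher. In Btg4tm against Btg4wt 8 were called higher and 2 lower (18.1% and 7.94% of all genes), with a median of 0.69. The most abundant was Gm13023 (RefSeq Pramel25), with -1.18 and 0.69 in these comparisons, and it holds sequence of Oog1. C87977 (Pramel29) had -1.90 and 1.41, and Gm13084 (Pramel26), which holds sequence of Oog2, had -2.22 and 1.34. Oog1, Oog2 and Oog4 had values within the range of the 23 tested genes.

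With scaling by the median ratio, Oog3 was not alone in rising within the family. C87499 (Pramel32) had 0.93 and -0.42, and Pramef12 (Pramel13) had 0.78 and -1.11, and these were the 2 that passed as higher in MII. C87499 was at a mean of 1021 scaled TPM, against 5003 to 14306 for Oog3 over the libraries. Of the genes that share sequence with Oog3, Gm13088 had -2.20 and 2.06 and Gm13103 had -2.76 and 1.79 in MII against GV and in Btg4tm against Btg4wt. In the first comparison Oog3 had the opposite direction, except with scaling to mitochondrial RNA. It did not pass the test in the second, but with that scaling it passed as higher (0.99, limma adjusted p = 0.0055).

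**Figure D5:**
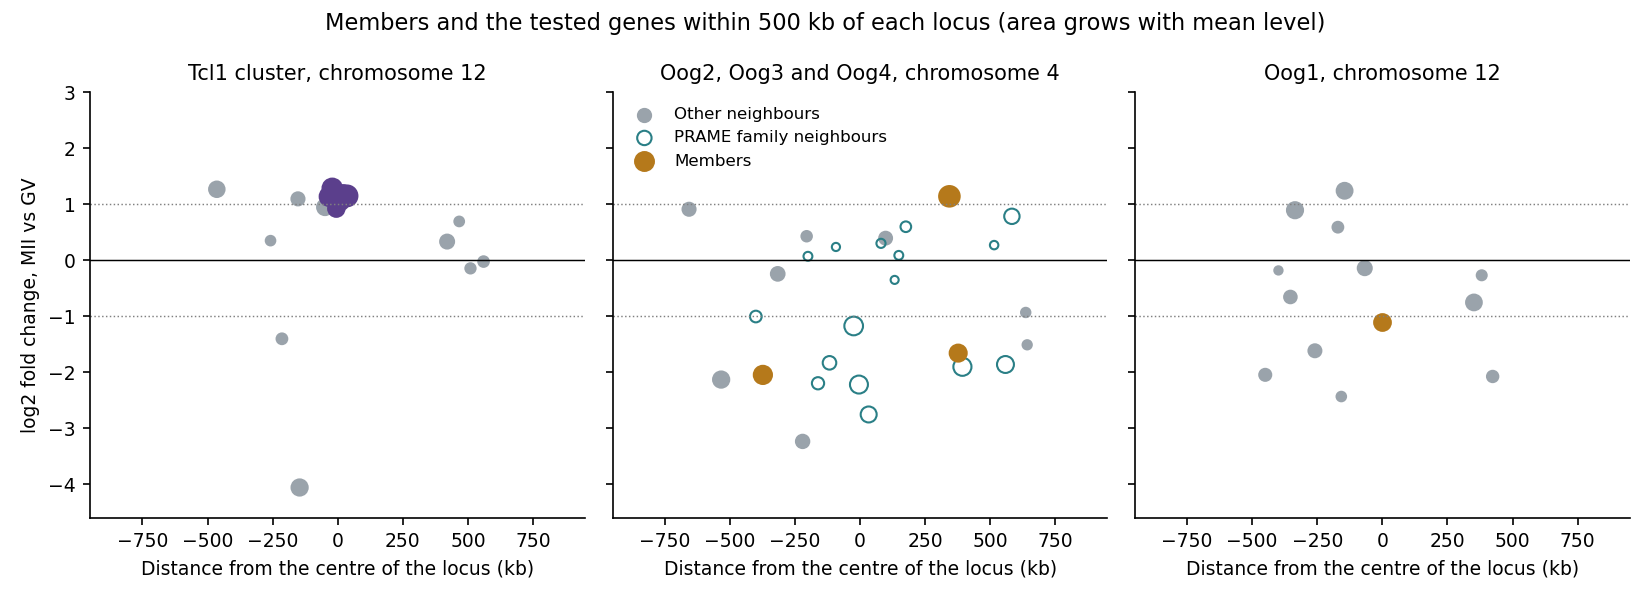
Log2 fold change in MII against GV of the members (filled, purple or amber), PRAME family neighbours (open) and other neighbours (grey) against the distance in kb from the centre of each locus; point area grows with mean level. Around the Tcl1 cluster and around Oog3, tested genes lie on both sides of 0.

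Genes annotated near the members were counted in the same way. Within 500 kb of the Tcl1 cluster, 10 of 11 listed genes were tested, of which 2 were called higher and 2 lower in MII against GV (12.5% and 24.0% of all genes). Glrx5, which makes a mitochondrial glutaredoxin and lies 103 kb from the cluster, had -4.06, and Dicer1, which encodes the nuclease that makes small RNAs, had 1.26. The nearest, the processed pseudogene Gm47672 at 10.6 kb, had 0.94 and was not called. In Btg4tm against Btg4wt, Glrx5 had 3.89 and Dicer1 -1.41, and these were the only 2 called. Around Oog2, Oog3 and Oog4, 25 of 27 listed neighbours were tested, of which 11 were called lower and none higher in MII against GV. In Btg4tm against Btg4wt 9 of the 25 were called higher and 3 lower (18.1% and 7.94% of all genes). These are the directions of Oog2 and Oog4, and 16 of the 25 are PRAME family genes already counted above. Around Oog1, 12 of 14 were tested, of which 4 were called lower and 1, Snw1, higher in MII against GV, and 4 were called higher and none lower in Btg4tm against Btg4wt. Both are the more frequent directions over all genes too, and no test was made of these counts.

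Genes were also ranked by how closely their log2 levels followed the mean of each cluster over the 8 libraries, among the 1528 other genes whose mean level reached 100 scaled TPM. These correlations are a description over 4 groups of 2 libraries that share a scaling, and carry no test. For the Tcl1 cluster the closest were AU016765 (0.997), Pld1, a phospholipase D (0.995), Fam90a1a (0.994), Med27, a Mediator subunit (0.994), and Ergic2 (0.994). Med27 averaged 423.5 scaled TPM in GV, 979.6 in MII, 965.7 in Btg4wt and 559.9 in Btg4tm. For the Oog genes, whose mean mixes Oog3 with genes of opposite direction, they were Gm32983 (0.999), Cox7a2l (0.996), B4galt4 (0.996), Jpt1 (0.996) and Sec61g (0.995). Jpt1 averaged 556.5 in GV, 58.7 in MII, 63.8 in Btg4wt and 392.2 in Btg4tm.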

How the data were processed

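Per the labels and methods, the authors trimmed reads with Trim Galore 0.6.10, aligned them with HISAT2 2.2.0 to GRCm38 with GENCODE vM25, counted exons with featureCounts 2.0.6 without strand, kept primary alignments of mapping quality 10 or more, and deposited TPM per gene symbol. The gene lengths behind TPM and the filter on listed genes are not given in the sources used here. The labels speak of more samples per group than the 2 libraries analysed here. Priming was by oligo(dT), so a change in the amount of RNA and a change in its poly(A) tail cannot be told apart. This holds for rises as for falls.

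The 15962 genes in both sets of tables (17384 control, 16448 injection) were scaled by the median of ratios. Genes that reached 1 TPM in 2 or more libraries were fitted as log2(scaled TPM + 1) with limma 3.58.1 in R 4.3.3 (eBayes with trend) over all 8 libraries, with Benjamini-Hochberg adjustment over all 13968 genes. The methods name DESeq2, which needs counts, so it was not used. The fit was tested on simulated data. Ratios were tested by exact permutation (SciPy 1.17.1). Promoters came from RefSeq on GRCm38.p6, in which all 10 members matched, and transcripts from GENCODE M21. The text names every member and, in each list, the most abundant genes. Akt1, Akt2, Pramef12, Gm13103, Gm13088 and Snw1 were added after their values were seen. The members and gene lists were chosen with earlier results of these data known. Alternatives were other scalings, a pseudocount of 0.1, no filter or one at 5 TPM, fits of each comparison's own 4 libraries, eBayes with no trend, a replicate block, calls without a fold limit or at an adjusted p under 0.01, and leaving out each library.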

Additional observations from a re-analysis of the deposited data

How the results depend on the processing

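With 2 libraries per group and TPM in place of counts, depth and counting error cannot be had, and a value rests on the agreement of 2 libraries. TPM are shares of a library, so the scaling sets the directions of the Tcl1 cluster. Scaling to mitochondrial RNA left 0 members called higher and 9 called lower in MII against GV, with Tcl1 at -1.07, Tcl1b1 at -0.94, Tcl1b2 at -1.08, Tcl1b3 at -1.16, Tcl1b4 at -1.03, Tcl1b5 at -1.29 and Oog3 at -1.08. It gave Btg4tm against Btg4wt 0.72 for Tcl1, 0.20 for Tcl1b1, 0.35 for Tcl1b2, 0.41 for Tcl1b3, 0.20 for Tcl1b4, 0.68 for Tcl1b5 and 0.99 for Oog3. In Btg4wt against MII it gave 0.27 for Tcl1, 0.45 for Tcl1b1, 0.42 for Tcl1b4, 0.17 for Tcl1b5 and 0.25 for Oog1. In Btg4tm against GV it called 2 members lower and gave -0.079 for Tcl1, -0.29 for Tcl1b1, -0.17 for Tcl1b2, -0.24 for Tcl1b3, -0.41 for Tcl1b4, -0.44 for Tcl1b5 and -0.14 for Oog3. The cause was not tested. TPM as deposited and quantile normalization each called 2 members higher in MII against GV and 1 in Btg4tm against Btg4wt, and the latter gave Tcl1 0.18 and Oog3 0.14 there. With no minimum fold, 6 members were called lower in Btg4tm against Btg4wt, and 1 higher and 2 lower in Btg4tm against GV. Without Oog3, the log2 ratio of Oog to Tcl1 cluster turned to 0.37 in Btg4wt against MII. Leaving out 1 library at a time, the lone library being taken to vary like the others, gave 5 to 6 members called higher in MII against GV. In Btg4tm against Btg4wt it gave 1 to 2 called higher, 1 without the second Btg4wt library, and 0 to 3 called lower. It moved Tcl1b3 in Btg4wt against MII between -0.00265 and 0.0261 and Tcl1b5 in Btg4tm against GV between -0.021 and 0.41. The pseudocount, the filters, the stricter p, the fit without trend and the fit of 4 libraries changed no count of member calls by over 1.5 times. The replicate block is a fit with the replicate number as a term. The numbers do not pair the libraries, since deviations of same-numbered libraries correlated between -0.0539 and 0.0555. With the block, 6 members were again called higher in MII against GV and 2 in Btg4tm against Btg4wt, and the adjusted p of Tcl1b5 in the latter was 0.062.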
